A study of Homo sapiens with 42 samples.

Results

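The beta satellites without LSAU were the 120 regions, of 2523 centromeric and satellite regions counted, whose names start with bsat and do not hold LSAU. They lie on 14 chromosomes, with 36 regions on chromosome 19, 33 on Y, 10 each on 7 and 16, 6 each on 8 and 22, 4 each on 13 and 21, 3 each on 14 and 15, 2 on 9, and 1 each on 4, 5 and 20. A further 64 beta satellite regions whose names hold LSAU, a longer repeat that is interleaved with beta satellite in composite arrays, were kept apart.

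Beta satellite is a tandem repeat of a short monomer found beside several human centromeres, on the short arms of the acrocentric chromosomes, where it flanks the ribosomal DNA, and on the Y chromosome. DNA topoisomerase II (TOP2) passes a DNA duplex through a break that it makes in another, and stays bound to the cut ends by a covalent bond while it does so. Human cells have an isoform, TOP2A, that is abundant in dividing cells and is known for its role at centromeres in mitosis, and another, TOP2B, that dividing and resting cells both express. Etoposide and mitoxantrone are TOP2 poisons used against leukaemia: they hold the enzyme in the bound, cut state, and mitoxantrone also intercalates into DNA.

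KG1 is a human myelogenous leukaemia cell line. In 1 experimental series, cells were exposed for 1 h to 100 µM etoposide or left without drug, in 4 replicas. In the other, they were exposed for 1 h to 20 µM mitoxantrone or left without drug, in 3 replicas. Each replica gave 6 libraries, namely DNA pulled down with an antibody to TOP2A, DNA pulled down with an antibody to TOP2B, and input DNA, each with and without drug, which made 42 libraries in 12 groups. The cells carried no genetic change beyond those of the line, and no source used here says whether the replicas were separate cultures, so that p-values measure the spread between these samples, which may be technical. The region counts carry the lengths of the regions, which were not used here, so levels are given for a region or chromosome across libraries and are not ranked per length.

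Depth differed widely. The libraries held 23900 to 3207823 reads in all regions together (median 351072), and 61 to 18562 in the beta satellites. The 3 libraries with the fewest beta satellite reads were TOP2A with etoposide in replica 3 (61 reads), TOP2B with etoposide in replica 3 (82) and TOP2A without drug in mitoxantrone replica 2 (88). The mitoxantrone replica 3 libraries held 5980 to 18562 of them, more than most other libraries, and so weigh most in any sum of reads. The replicas also differed in read length (38 bases in etoposide replica 1, 100 in mitoxantrone replica 1 and 50 in the others) and lay in 5 sequencing orders. Every order but 1 held a single replica, and every replica held both arms of each comparison.

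Of the 120 regions, 104 had at least 1 read in some library and 16 had none in any, of which 8 were on Y and 4 on chromosome 16. A library showed reads in 30 to 100 of the regions (median 86), and 12 regions had reads in every library. Reads were concentrated in few regions: 15 regions held 50% of the 118761 beta satellite reads and 52 held 90% of them. Chromosomes 7, 8, 19 and Y, with 85 regions, held 89.0% of the reads, and the 20 regions of the acrocentric chromosomes 13, 14, 15, 21 and 22 held 2.73%. Together the 120 regions held 38.0% of all beta satellite reads, and the composites with LSAU held the rest.

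Chromosome 19 led in total reads, with 45.1% of the beta satellite reads of all libraries pooled and 31.7% to 64.6% in single libraries. It was followed by Y, with 17.5% (5.64% to 31.7%), chromosome 8, with 13.4% (3.93% to 26.2%), and chromosome 7, with 13% (6.56% to 19.6%). The ranges of Y, 8 and 7 overlap, so the order of Y, 8 and 7 was not the same in every library. On chromosome 19 the reads were spread over many regions, since the leading one, bsat_19_21, held 7.68% of them. On chromosomes 7 and 9 a single region held most: bsat_7_10 held 50.8% of the chromosome 7 reads and bsat_9_5 held 84.6% of the chromosome 9 reads. bsat_16_6 held 41.9% of the chromosome 16 reads, bsat_8_4 34.4% of the chromosome 8 reads, and bsat_Y_5 20.5% of the Y reads.

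**Figure D1:**
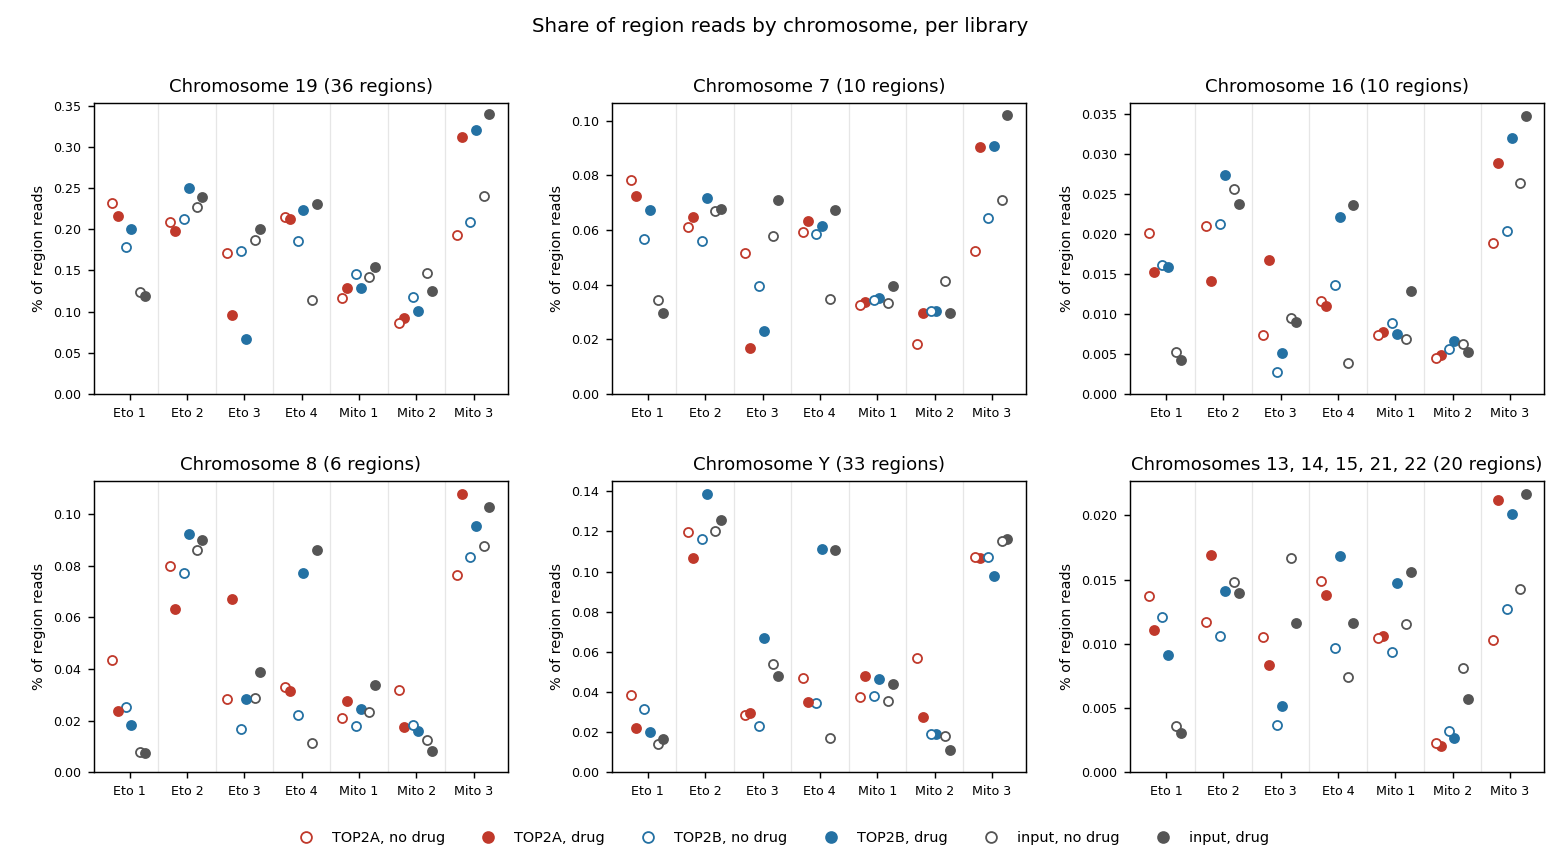
Share of all region reads (%) in the beta satellites of chromosomes 19, 7, 16, 8 and Y and of the acrocentric chromosomes, in each of the 42 libraries by replica (Eto, etoposide series; Mito, mitoxantrone series), for TOP2A (red), TOP2B (blue) and input (grey), without drug (open) and with drug (filled); each panel has its own scale. On chromosome 8 and Y the libraries of etoposide replica 2 and mitoxantrone replica 3 stand high, and in etoposide replica 4 the Y share goes from 0.0173% to 0.111% in input.

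The share of the beta satellites in all region reads varied widely, both between and within replicas. It ran from 0.180% (TOP2B with mitoxantrone, replica 2) to 0.752% (input with mitoxantrone, replica 3). The 6 libraries of etoposide replica 2 lay between 0.479% and 0.615%, those of mitoxantrone replica 3 between 0.475% and 0.752%, and those of mitoxantrone replica 2 between 0.180% and 0.242%. The last 2 of these ranges do not overlap, although both hold all 3 kinds of library with and without mitoxantrone. Mitoxantrone replica 1 lay between 0.244% and 0.320%. Etoposide replicas 1, 3 and 4 were less compact, at 0.188% to 0.436%, 0.210% to 0.395% and 0.203% to 0.546%, and their ranges overlap each other. For the shallowest library, TOP2A with etoposide in replica 3, the 95% Wilson interval of the share ran from 0.199% to 0.328%, which covers counting error only.

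**Figure D2:**
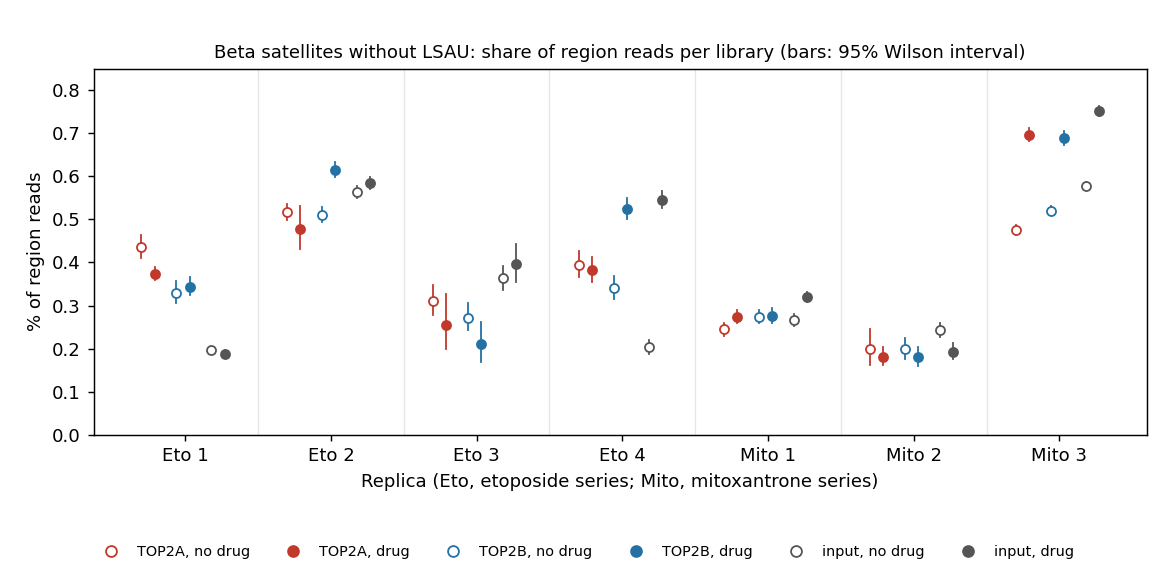
Share of the beta satellites without LSAU in all region reads (%) in each of the 42 libraries, by replica, for TOP2A (red), TOP2B (blue) and input (grey), without drug (open) and with drug (filled); bars are 95% Wilson intervals. The libraries of mitoxantrone replica 2 lie at 0.180% to 0.242% and those of replica 3 at 0.475% to 0.752%, while those of etoposide replica 4 spread from 0.203% to 0.546%.

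The beta satellites did not vary as 1 block: chromosomes 8 and Y varied on a wider scale than chromosomes 7 and 19. This grouping was chosen after the values were seen and is given as a description. It leaves out chromosome 16, which had fewer reads and also varied widely, from 0.00277% to 0.0348% of region reads, where Y ran from 0.0109% to 0.139%. For every 100 reads on chromosomes 7 and 19, a library held 12.4 to 106 reads on chromosomes 8 and Y. Etoposide replica 2 had high values in all 6 libraries (64.7 to 73.8) and etoposide replica 1 had low ones (13.9 to 26.4). In etoposide replica 4 the untreated TOP2A library had 29.2, the TOP2B library 23.3 and the input library 19.1, and their partners with etoposide had 24, 66.1 and 65.9. The TOP2B and input libraries of that replica with the drug thus lay at the level of replica 2, and the TOP2A library did not. Over regions of all classes, their deviations from the group means correlated with those of their untreated partners at -0.214 in TOP2B and -0.461 in input. The counts thus do not bear out the pairing of these libraries, and the reason was not tested.

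Monomeric alpha satellite, another repeat class beside the centromeres, moved with this balance. Its share of region reads ran from 0.303% to 4.13%, and in 16 of the 21 pairs of a library with drug and its partner without, the monomeric share and the balance of chromosomes 8 and Y changed with the same sign. In etoposide replica 4 it was 0.516% in TOP2A without drug and 0.389% with it, 0.479% and 3.00% in TOP2B, and 0.721% and 3.13% in input. In mitoxantrone replica 3 it went with the drug from 3.92% to 0.730% in TOP2A, from 3.96% to 0.605% in TOP2B and from 3.85% to 1.01% in input, and the balance went there from 74.7 to 53.4, from 69.7 to 47.0 and from 65.1 to 49.5. The part of the library's composition in the beta satellite results was not tested.

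**Figure D3:**
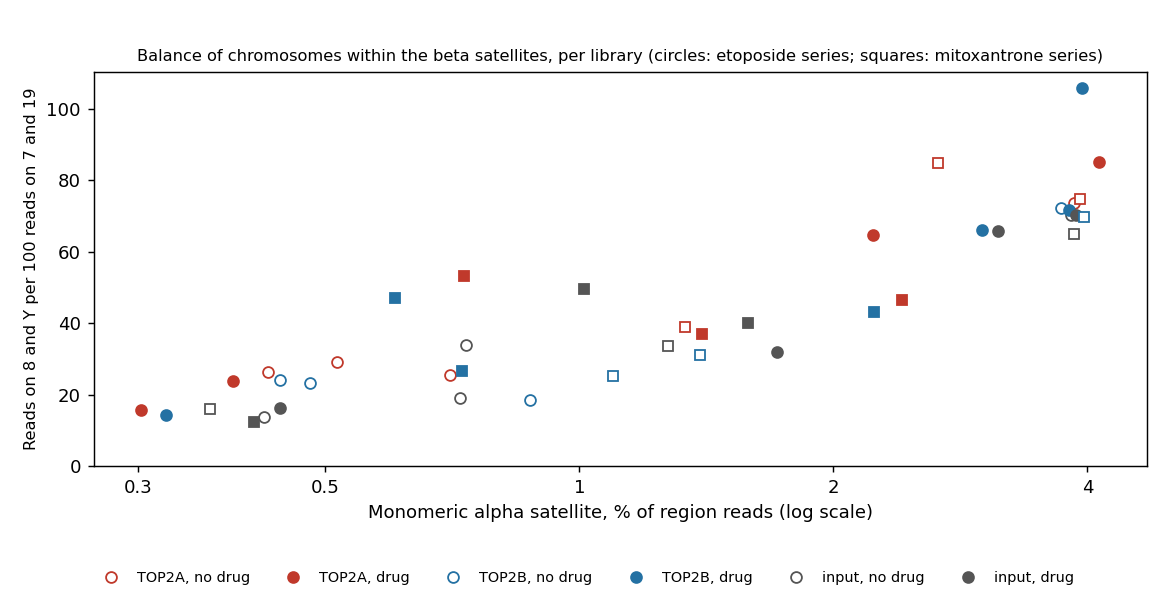
Reads on chromosomes 8 and Y per 100 beta satellite reads on chromosomes 7 and 19, against the share of monomeric alpha satellite in region reads (%, log scale), with 1 point for each of the 42 libraries (circles, etoposide series; squares, mitoxantrone series; colours and fills by kind of library and drug). The balance runs from 12.4 to 106 and the monomeric share from 0.303% to 4.13%, and libraries high in the one tend to be high in the other.

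With etoposide, the beta satellites made up a smaller share of TOP2A pulldown reads in each of the 4 replicas, by a small amount. The share was 0.436%, 0.517%, 0.310% and 0.395% without drug and 0.374%, 0.479%, 0.255% and 0.383% with etoposide, in replicas 1 to 4. The 2 groups overlap, because replicas differ by more than the drug pairs do. The mean change of the log2 share was -0.16 ± 0.10 (SD, n = 4), from -0.27 to -0.05. By region the direction was split: of 50 regions with enough reads for the test, 23 were higher and 27 lower, with a median log2 change of -0.08, where the median of all 1068 regions tested was -0.05. None of the 50 passed an adjusted p of 0.05 in edgeR's quasi-likelihood test, in which 0% of all regions were called, and none had an unadjusted p under 0.05.

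The lower TOP2A share was seen on chromosome 19 in all 4 replicas and on Y, 8 and 16 in 3 each, and chromosome 9 was higher in 3. Chromosome 19 held 0.232%, 0.209%, 0.172% and 0.215% of the TOP2A reads without drug and 0.216%, 0.198%, 0.0962% and 0.212% with etoposide, in replicas 1 to 4. It was thus lower in all 4 replicas, but by a clear amount in the shallow replica 3 alone, and its 27 tested regions had a median log2 change of 0.03. The fitted change of the chromosome 19 sum was -0.28 (SE 0.47, edgeR adjusted p = 0.985). Chromosome Y was 0.0383%, 0.120%, 0.0284% and 0.0471% without drug and 0.0220%, 0.107%, 0.0293% and 0.0348% with it, lower in 3 of 4 replicas. Its sum changed by -0.44 (SE 0.64, edgeR adjusted p = 0.985), and 7 of its 9 tested regions were lower (median -0.33). No chromosome sum of the beta satellites was called in this comparison, where 0% of 177 sums of all classes were.

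The leading regions of Y and chromosome 8 were lower in TOP2A with etoposide in each replica, while chromosome 8 as a whole was not. The chromosome 8 share was 0.0436%, 0.0798%, 0.0284% and 0.0329% without drug and 0.0236%, 0.0633%, 0.0669% and 0.0315% with it. In replica 3 with etoposide it rests on 16 reads. The chromosome 8 sum changed by -0.28 (SE 0.65, edgeR adjusted p = 0.985). bsat_Y_5, the leading region of Y, held 92.8, 266, 84.2 and 84 reads per 1000000 region reads (RPM) without drug and 41.6, 211, 41.8 and 38.6 with etoposide. It was lower in all 4 replicas, but the groups overlap because replica 2 is high in both. The value of replica 3 with etoposide rests on few reads, since all of Y held 7 there. The fitted log2 change of bsat_Y_5, without pairing of replicas, was -0.72 (SE 0.61, edgeR adjusted p = 0.999). bsat_8_4, the leading region of chromosome 8, behaved alike, with 125, 272, 116 and 142 RPM without drug and 79.7, 141, 41.8 and 82.8 with it (log2 change -0.79, SE 0.66, edgeR adjusted p = 0.999). The lowest value among the tested regions was that of bsat_Y_2, which had 20.2, 47.5, 10.5 and 32.3 RPM without drug and 1.73, 28.1, 0 and 11 with etoposide (log2 change -1.57, SE 0.91, edgeR adjusted p = 0.999). It was lower in each replica, but its counts were few, at 1 to 28 reads without drug and 0 to 2 with it.

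The leading region of chromosome 9 had higher values in TOP2A with etoposide, also without passing the test, and other regions had no common direction. bsat_9_5 held 84.7, 98.4, 94.7 and 110 RPM without drug and 118, 127, 209 and 132 with etoposide, so that it was higher in all 4 replicas and the groups do not overlap. Its log2 change was 0.56 (SE 0.30, edgeR adjusted p = 0.999). In input bsat_9_5 was also higher with etoposide in all replicas but replica 4. It had 59.3, 170, 72.3 and 134 RPM there without drug and 71.7, 198, 142 and 132 with it. Set against input, its TOP2A effect was 0.39 (SE 0.41). Some of the TOP2A values rest on few reads, since with etoposide all of chromosome 9 held 9 reads in replica 2 and 5 in replica 3. The highest value of a tested region was that of bsat_8_1, at 0.80 (SE 0.78), on the same chromosome as bsat_8_4. It had 68.6, 168, 10.5 and 110 RPM without drug and 62.4, 211, 418 and 82.8 with it, where the 418 in the shallow replica 3 stands for 10 reads. For bsat_7_10 the values were 420, 295, 347 and 329 RPM without drug and 398, 338, 83.7 and 342 with it, higher in 2 replicas and lower in 2, with replica 3 far apart and a fitted log2 change of -0.09 (SE 0.44).

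In TOP2B pulldown, etoposide went with values in both directions. The beta satellite share was 0.330%, 0.511%, 0.272% and 0.341% without drug and 0.344%, 0.615%, 0.210% and 0.525% with it. It was higher in replicas 1, 2 and 4 and lower in replica 3, with a mean log2 change of 0.15 ± 0.41 (SD, n = 4). Of the 50 tested regions 37 were higher (median 0.16, against 0.07 over all regions), none was called where 0% of all regions were, and none had an unadjusted p under 0.05. Chromosomes 8 and Y were higher in most of their regions, with 4 of 4 and 8 of 9 tested regions up and medians of 0.51 and 0.56. The replicas did not share a direction: in replica 4 the chromosome Y share went from 0.0347% to 0.111% and the chromosome 8 share from 0.0222% to 0.0774%, while in replica 1 they went from 0.0317% to 0.0202% and from 0.0251% to 0.0182%. Chromosomes 7 and 19 changed less in replica 4, from 0.0586% to 0.0614% and from 0.186% to 0.223%. In the shallow replica 3, Y went from 0.0231% to 0.0667% and chromosome 8 from 0.0166% to 0.0282%, while chromosome 19 went from 0.173% to 0.0667%. The fitted changes of the sums were 0.35 for Y (SE 0.63) and 0.29 for chromosome 8 (SE 0.64), with edgeR adjusted p-values of 0.736 and 0.765, and -0.30 for chromosome 19 (SE 0.47).

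Input DNA, which saw no antibody, varied as much as the pulldowns. Its beta satellite share was 0.196%, 0.563%, 0.363% and 0.203% without drug and 0.188%, 0.585%, 0.395% and 0.546% with etoposide. The mean log2 change of 0.39 ± 0.70 (SD, n = 4) came almost wholly from replica 4, whose change was 1.43, and was 0.04 without that replica. In replica 4 the input share of chromosome 8 went from 0.0113% to 0.0859% and that of Y from 0.0173% to 0.111%, and bsat_8_4 went from 52.8 to 310 RPM. Over regions of all classes, the deviations of this pair of input libraries from their group means correlated at -0.461. Over all replicas 37 of 50 regions were higher (median 0.26, against 0.09 over all regions), and 29 of 52 when replica 4 was left out (median 0.03). No region was called, where 0% of all were, and none had an unadjusted p under 0.05.

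**Figure D4:**
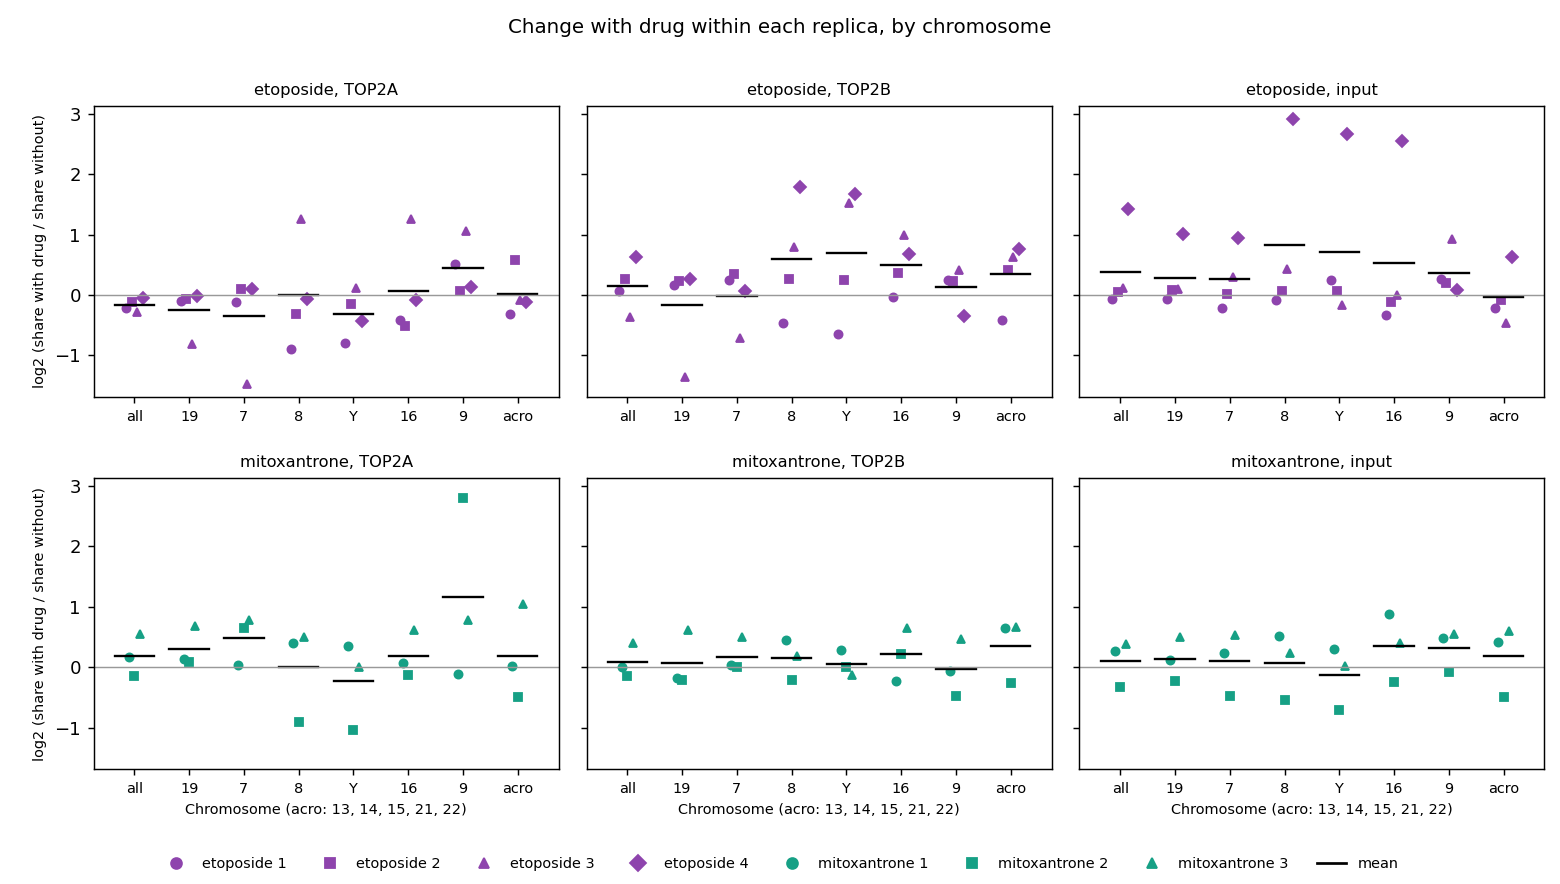
Change of the log2 share of region reads with drug against no drug within each replica, for all beta satellites, for chromosomes 19, 7, 8, Y, 16 and 9 and for the acrocentric chromosomes, in TOP2A, TOP2B and input; points are replicas and black lines means. The changes of all beta satellites have means of -0.16, 0.15 and 0.39 with etoposide and 0.19, 0.09 and 0.10 with mitoxantrone, etoposide replica 4 stands high in input, at 1.43, and the high chromosome 9 point of mitoxantrone replica 2 rests on a library with 0 reads there.

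Set against input, the etoposide effect in TOP2A was negative in all 4 replicas, with a mean log2 difference of -0.55 ± 0.62 (SD, n = 4), and of -0.24 without replica 4. Of 50 tested regions 14 were above 0 and 36 below (median -0.33, against -0.12 over all regions), with 0 called where 0% of all regions were. The lowest was again bsat_Y_2, at -2.22 (SE 1.16, edgeR adjusted p = 1.00), and bsat_Y_5 had -1.30 (SE 0.83). In TOP2B the difference from input was -0.24 ± 0.49 (SD), 2 replicas above and 2 below 0, with 20 of 50 regions above and none called (0% of all regions). Set against the TOP2B effect, the TOP2A effect was -0.31 ± 0.31 (SD), below 0 in 3 of 4 replicas, and -0.19 without replica 4, with 19 of 50 regions above 0 and none called (0% of all). For chromosome Y this difference of isoforms was below 0 in all 4 replicas, from -2.11 to -0.16, with a fitted value of -0.80 (SE 0.90, edgeR adjusted p = 1.00). The lowest value was that of replica 4, whose TOP2B pair correlated at -0.214, so the counts do not bear out its pairing. Replica 3 rests on 7 Y reads in TOP2A with etoposide.

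With mitoxantrone, most tested beta satellite regions were higher in all 3 kinds of library, and this rested on replica 3: without it, the regions were split about evenly in TOP2B and input. The TOP2A share was 0.244%, 0.20% and 0.475% without drug and 0.274%, 0.182% and 0.696% with it, in replicas 1 to 3. It was higher in replicas 1 and 3 and lower in replica 2, and replica 3 lay above the others with and without drug. The mean log2 change was 0.19 ± 0.35 (SD, n = 3). In the fit of single regions 60 of 68 were higher (median 0.48, against -0.05 over all 1416 regions), none was called where 0% of all regions were, and none had an unadjusted p under 0.05. Without replica 3, 24 of 41 tested regions were higher and the median was 0.11.

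All 11 chromosome sums tested lay above 0 in TOP2A with mitoxantrone (median 0.68), as they did in TOP2B and input, and Y was the lowest of them in TOP2A. Of the chromosome 19 regions 33 of 34 were higher (median 0.50), of the chromosome 7 regions 8 of 9 (median 0.72), and of the Y regions 7 of 11 (median 0.05). The chromosome 19 share was 0.116%, 0.0864% and 0.193% without drug and 0.128%, 0.0921% and 0.312% with it, higher in each replica. Chromosome 7 likewise went from 0.0327%, 0.0182% and 0.0524% to 0.0336%, 0.0298% and 0.0903%. The fitted changes of the sums were 0.69 (1.61-fold, SE 0.67) for chromosome 19, 0.83 (SE 0.77) for chromosome 7 and 0.10 (SE 0.88) for Y, each with an edgeR adjusted p of 1.00. Chromosomes 15, 22, 9, 16 and 8, with fewer reads than chromosome 19, had 1.48 (SE 1.34), 0.78 (SE 1.02), 0.76 (SE 0.92), 0.68 (SE 0.98) and 0.53 (SE 0.99). No beta satellite sum was called, where 0% of the 190 sums were. The same 11 sums ran from 0.27 to 1.48 in TOP2B and from 0.13 to 0.51 in input, so values above 0 were not particular to TOP2A.

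The leading regions of chromosomes 7 and 19 were higher in each replica, and that of Y was not. bsat_7_10 had 158, 159 and 263 RPM without drug and 202, 173 and 415 with mitoxantrone in TOP2A. It was higher in each of the 3 replicas, with overlapping groups and a log2 change of 0.52 (SE 0.50, edgeR adjusted p = 0.998). bsat_19_21 had 118, 90.9 and 136 without drug and 120, 132 and 230 with it, also higher in each replica but hardly so in replica 1 (log2 change 0.54, SE 0.44, edgeR adjusted p = 0.998). The untreated values of replica 2 rest on few reads, since that library held 8 on all of chromosome 7 and 38 on chromosome 19. bsat_Y_5 had 97.5, 114 and 238 without drug and 112, 62.3 and 208 with it, and so had no common direction. The ends of the range were bsat_7_6, at 1.42 (SE 1.22), with 2, 0 and 21 reads without drug and 4, 2 and 52 with it, and bsat_Y_10, at -0.85 (SE 1.32), with 8, 11 and 39 reads without and 10, 2 and 94 with it.

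TOP2B and input gave like values with mitoxantrone. The TOP2B share was 0.274%, 0.199% and 0.520% without drug and 0.276%, 0.180% and 0.688% with it, a mean log2 change of 0.09 ± 0.28 (SD, n = 3). The input share was 0.267%, 0.242% and 0.579% without drug and 0.320%, 0.193% and 0.752% with it, a mean change of 0.10 ± 0.38 (SD). In both, replica 2 was lower and replica 3 higher with the drug, as in TOP2A. In each of TOP2B and input 61 of 68 regions were higher, with medians of 0.39 and 0.27 against 0.01 and -0.05 over all regions, and none was called (0% of all regions in either). Without replica 3 the counts were 20 of 41 in TOP2B and 21 of 41 in input. The highest single values were those of bsat_22_5 in TOP2B, at 1.13 (SE 1.10), and bsat_Y_34 in input, at 1.18 (SE 0.95).

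Set against input, the mitoxantrone effect on the beta satellites was small, at 0.08 ± 0.16 (SD, n = 3) in TOP2A and -0.02 ± 0.22 (SD) in TOP2B. By region 47 of 68 were above 0 in TOP2A (median 0.15, against 0.03 over all regions) and 43 of 68 in TOP2B (median 0.08, against 0.05), with none called in either (0% of all regions). The TOP2A effect was 0.10 ± 0.09 (SD) above the TOP2B effect, with 40 of 68 regions above 0 and none called (0% of all).

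The difference between the drugs was tested in 1 fit over all 42 libraries, and the 2 series have controls of their own. In TOP2A, 56 of 67 regions had a lower change with etoposide than with mitoxantrone (median -0.66, against -0.13 over all 1372 regions), and none was called, where 0% of all regions were. Chromosome 19 was lower with etoposide in 4 of 4 replicas (mean -0.25) and higher with mitoxantrone in 3 of 3 (mean 0.30), and the fitted difference of its sum was -0.88 (SE 0.80, edgeR adjusted p = 0.997). The etoposide change was -0.81 in the shallow replica 3 and -0.10 to -0.02 in the others, and the mitoxantrone change was largest in replica 3. In TOP2B 43 of 67 regions were lower (median -0.20, against 0.08 over all), and in input 31 of 67 (median 0.06, against 0.15), with none called in either (0% of all regions). The drugs were given at different doses and in different replicas, so drug, dose and series cannot be told apart.

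Without drug, the beta satellites as a group stood at about the same share in pulldown and input over the 7 untreated replicas of both series. The TOP2A share ran from 0.20% to 0.517% (median 0.395%), the TOP2B share from 0.199% to 0.520% (median 0.330%) and the input share from 0.196% to 0.579% (median 0.267%), and these ranges overlap almost wholly. Within replicas, the log2 ratio of TOP2A to input was 0.16 ± 0.62 (SD, n = 7), above 0 in 2 replicas and below in 5, and that of TOP2B to input 0.08 ± 0.48 (SD), above 0 in 3. Etoposide replicas 1 and 4 had ratios of TOP2A to input of 1.16 and 0.96, and the other 5 lay between -0.28 and -0.12. Of the 46 tested regions 28 were higher in TOP2A than in input (median 0.16, against -0.01 over all 1028 regions) and 25 in TOP2B (median 0.01, against -0.01). None was called in either, where 0% of all regions were, and 3 of 46 had an unadjusted p under 0.05 in TOP2A (151 of 1028 over all regions) and 0 of 46 in TOP2B (71 of 1028).

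By chromosome, the untreated TOP2A pulldown leaned to chromosomes 8 and Y. All 4 tested regions of chromosome 8 were higher in TOP2A than in input (median 0.43), as were 7 of 9 on Y (median 0.26). The chromosome 8 sum was 0.50 higher on the log2 scale (1.42-fold, SE 0.29, edgeR adjusted p = 0.370) and the Y sum 0.35 (SE 0.27, edgeR adjusted p = 0.537). Neither was called, nor any of the 8 beta satellite sums tested, where 4.00% of the 175 sums of all classes were. The chromosome 8 share ran from 0.0209% to 0.0798% (median 0.0329%) in TOP2A and from 0.00789% to 0.0876% (median 0.0235%) in input. It was higher in TOP2A in 3 of the 7 replicas alone, so the fitted difference does not stand for a typical replica. The highest region was bsat_8_3, at 0.58 (SE 0.35, edgeR adjusted p = 0.486).

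The 3 regions with an unadjusted p under 0.05 were all on chromosome 19 and all lower in TOP2A than in input. bsat_19_21 held 90.9 to 147 RPM in TOP2A (median 133) and 137 to 204 in input (median 150), so the ranges overlap at their ends. Its log2 difference was -0.41 (SE 0.18, edgeR adjusted p = 0.307). bsat_19_2, named here after its values were seen, had -0.42 (SE 0.20, edgeR adjusted p = 0.329) and bsat_19_15 had -0.52 (SE 0.24, edgeR adjusted p = 0.338). The chromosome as a whole did not follow them, since 14 of its 24 tested regions were higher in TOP2A and its sum differed by -0.07 (SE 0.23). In TOP2B, bsat_19_21 and bsat_19_15 also lay below input, at -0.25 (SE 0.18) and -0.29 (SE 0.23), and the lowest region was bsat_19_22, at -0.38 (SE 0.24, edgeR adjusted p = 0.767).

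Between the isoforms without drug, the ratio of TOP2A to TOP2B was 0.08 ± 0.20 (SD, n = 7) for all beta satellites, above 0 in 5 of 7 replicas. Chromosome 8 had the widest lean to TOP2A among the 4 chromosomes with most reads, at 0.44 ± 0.39 (SD), above 0 in 6 of 7 replicas. Y had 0.37 ± 0.56 (SD), above 0 in 5 of 7, while chromosome 19 had -0.05 ± 0.28 (SD) and chromosome 7 -0.01 ± 0.39 (SD). All 4 tested regions of chromosome 8, all 9 of Y and all 5 of chromosome 7 were higher in TOP2A, with medians of 0.29, 0.17 and 0.04. bsat_Y_5 was higher in TOP2A in each of the 7 replicas, by 0.15 in the fit (SE 0.18, edgeR adjusted p = 0.997). The margin was slight in some, as in etoposide replica 1, at 92.8 against 90.5 RPM, and in mitoxantrone replica 2 the TOP2A library held 25 reads on all of Y. Chromosome 9 was lower in TOP2A in all 7 replicas, and mitoxantrone replica 2 had 0 reads there in TOP2A, which allows a share of up to 0.00682% of region reads at that depth. Over all chromosomes 29 of 46 regions were higher in TOP2A (median 0.04, against -0.02 over all regions), with none called (0% of all regions) and 0 of 46 with an unadjusted p under 0.05 (2 of 1028 over all).

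**Figure D5:**
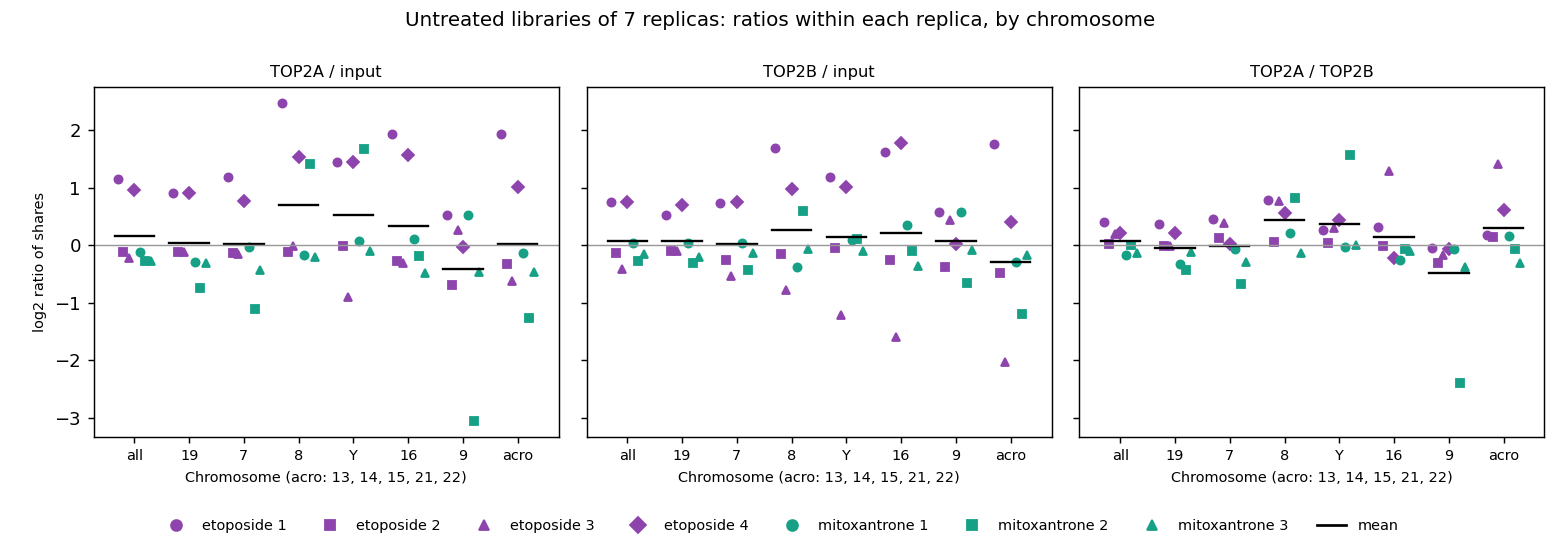
Log2 ratio of shares of region reads within each of the 7 untreated replicas, for TOP2A over input, TOP2B over input and TOP2A over TOP2B; points are replicas, coloured by series, and black lines are means. For chromosome 8 the ratio of TOP2A to TOP2B lies above 0 in 6 of 7 replicas, and for all beta satellites etoposide replicas 1 and 4 stand high over input, at 1.16 and 0.96 in TOP2A, and the low chromosome 9 point of mitoxantrone replica 2 rests on 0 reads.

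Under the drugs, pulldown and input differed in opposite ways by replica with etoposide and alike with mitoxantrone. With etoposide the log2 ratio to input was -0.11 ± 0.75 (SD, n = 4) in TOP2A and -0.01 ± 0.73 (SD) in TOP2B, and single replicas ran from -0.62 to 0.99 and from -0.91 to 0.87. With mitoxantrone it was -0.14 ± 0.07 (SD, n = 3) in TOP2A and -0.15 ± 0.06 (SD) in TOP2B, below 0 in each replica. The mitoxantrone value of chromosome 19 was -0.28 ± 0.15 (SD) in TOP2A and -0.22 ± 0.12 (SD) in TOP2B, again below 0 in each replica. By region 25 of 68 were above 0 in both pulldowns under mitoxantrone, and 27 and 30 of 50 in TOP2A and TOP2B under etoposide, with none called in these 4 comparisons (0% of all regions in each). bsat_Y_2 in TOP2A under etoposide had the only unadjusted p under 0.05 of these, with 1, 2, 0 and 2 reads against 18, 70, 2 and 28 in input (log2 -1.98, SE 0.89, edgeR adjusted p = 0.995).

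The acrocentric chromosomes, on which beta satellite flanks the ribosomal DNA, gave few reads. Their 20 regions held 0.0127% ± 0.0019 (SD, n = 4) of TOP2A reads without drug in the etoposide series and 0.0125% ± 0.0037 with etoposide, and 0.0077% ± 0.0047 (SD, n = 3) without and 0.0113% ± 0.0096 with mitoxantrone. The mean log2 change was 0.02 ± 0.39 (SD) with etoposide and 0.19 ± 0.78 (SD) with mitoxantrone, and neither has a common sign over the replicas. In the etoposide series none of these regions had enough reads for the test. In the mitoxantrone series 4 did, 2 on chromosome 13 and 2 on chromosome 22, with log2 changes in TOP2A from -0.54 to 0.83 (bsat_22_7), none called. Chromosomes 4, 5 and 20 had 1 region each and no reads in 21, 32 and 11 of the 42 libraries, and were not tested by region.

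Beside the composites with LSAU the beta satellites differed in their values, and the difference between the lists was not tested. Without drug, 0 of 24 tested composites were higher in TOP2A than in input (median -0.60), and 0 of 21 gamma satellites (median -0.83), where 28 of 46 beta satellites without LSAU were (median 0.16). In TOP2B the composites also had 0 of 24 higher (median -0.51), against 25 of 46. With mitoxantrone in TOP2A 18 of 50 composites were higher (median -0.15), against 60 of 68 of the beta satellites without LSAU. With etoposide in TOP2A 15 of 20 were (median 0.23), against 23 of 50. The HSat3 arrays, long satellite blocks near several centromeres, had 74 of 75 regions higher with etoposide in TOP2B and 73 of 75 in input, where the beta satellites had 37 of 50 in each. No region of these lists was called in any of these comparisons. Among chromosome sums in TOP2A against input without drug, 3 of 11 composite sums and 3 of 9 gamma satellite sums were called, all lower in TOP2A, and 0 of 8 beta satellite sums.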

How the data were processed

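The deposited table held whole read counts per region from the authors, with T2T-CHM13, Trimmomatic 0.36, BWA 0.7.17 and HTSeq 2.7.13 named in the submitters' processing notes. The sources used here do not give mapping quality and multi-mapping settings, which decide how many reads of near-identical repeats are kept, so reads of like arrays on different chromosomes may be exchanged. The 5 tally lines that name no region stayed out of library sizes. Titles naming alpha and beta were read as TOP2A and TOP2B. Sequences of the regions were not used here.

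Counts were tested with edgeR 4.0.16 (quasi-likelihood, TMM, filterByExpr with a minimum count of 10, Benjamini-Hochberg over all regions, threshold 0.05), for single regions and for sums by class and chromosome. Each series was fitted alone, the drugs were compared in a fit of all libraries, and the untreated comparisons had a replica block. The other fits had the group only, so their SE and p-values ignore the pairing and hold the spread between replicas. The fits were tested on simulated data. Shares are beta satellite reads over all region reads, with 95% Wilson intervals. For the log2 ratios of shares within replicas, 0.5 was added to the beta satellite reads. SE was derived from log2 change and p. Replica numbers mark libraries of a shared sequencing order. In 18 of 21 pairs of same-numbered libraries the deviations from the group means correlated above 0.1 (range -0.461 to 0.920), over 1232 regions. The pairs below that were etoposide replica 4 in input (-0.461) and in TOP2B (-0.214) and etoposide replica 3 in TOP2A (-0.0274). In 17 of the 21 the best match was the library of the same number. No 2 libraries of the same group held identical values, among 54 pairs compared.

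Regions named are the 8 with the highest mean level, the leading region of other chromosomes and the highest and lowest tested region of each comparison with a mean of at least 10 reads. Regions, lists and tests were chosen with earlier results of these data known. DESeq2 1.42.0, limma 3.58.1 (voom, with weights for library quality and the replica as block), a replica block or none, all reads as library size, no filter, a minimum count of 30, and leaving out each replica were alternatives.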

Additional observations from a re-analysis of the deposited data

Results flagged for a closer look

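Groups of 4 or 7 libraries or replica values were checked for a value that stood far from the rest, and 18 of 136 groups had one. The rule flags about 1 in 20 independent groups by chance, but these groups share libraries, so the count cannot be set against that rate. No cause was tested for any of them. In input with etoposide, replica 4 stood high, with log2 changes of 1.43 for all beta satellites (others -0.06 to 0.12), 1.45 for those off the acrocentric chromosomes, 1.02 for chromosome 19, 2.67 for Y and 2.55 for chromosome 16. Etoposide replica 3, the shallowest, stood low on chromosome 19, with 0.0962% of TOP2A reads with drug (others 0.198% to 0.216%) and log2 changes of -0.81 in TOP2A and -1.36 in TOP2B, and high in the TOP2A minus the TOP2B effect, at 0.55. It also stood apart on chromosome 7, with 0.0167% of TOP2A reads with drug, 0.0397% of TOP2B reads without drug and a log2 change of -1.47 in TOP2A, and on chromosome 16 in TOP2A over TOP2B without drug, at 1.29. Etoposide replica 2 stood high on Y, with 0.116% of TOP2B reads without drug and 0.107% of TOP2A reads with drug, and on chromosome 8, with 0.0773% of TOP2B reads without drug. Etoposide replica 1 stood low on chromosome 7 in input with drug, at 0.0297%, and mitoxantrone replica 2 stood high on Y in TOP2A over TOP2B without drug, at 1.57.

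Chromosome 19 moved one way in every etoposide replica and the other in every mitoxantrone replica in TOP2A, with means of -0.25 and 0.30 on the log2 scale, and in TOP2A minus input, with means of -0.53 and 0.17. The first difference had an edgeR p of 0.277, and the second was not tested. Both were found by a search over chromosomes and comparisons. In TOP2A the etoposide mean came mostly from the shallow replica 3, at -0.81, where the others had -0.10 to -0.02. The mitoxantrone change was largest in replica 3. The input change of etoposide replica 4 was 1.02, in a pair of libraries whose pairing the counts do not bear out.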

How the results depend on the processing

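No beta satellite region or chromosome sum was called under any of the 460 values of alternatives over 44 counts of calls, leaving out each replica included. For single named regions 252 of 2641 alternative values had the other sign and 39 moved by over 1 SE. For shares of chromosomes 139 of 1204 had the other sign and 10 moved by over 1 SD, and for the share of all beta satellites 17 of 172 and 2. Those 2 were medians of regions weighted alike: 0.056 in place of -0.16 for etoposide in TOP2A, and -0.18 in place of 0.08 for the mitoxantrone effect in TOP2A minus that in input.

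Leaving out 1 replica gave log2 changes of all beta satellites from -0.20 to -0.13 with etoposide in TOP2A, from -0.01 (without replica 4) to 0.32 in TOP2B, and from 0.04 (without replica 4) to 0.53 in input. With mitoxantrone they ran from 0.01 to 0.36 in TOP2A, from -0.07 to 0.21 in TOP2B and from -0.03 to 0.32 in input, the lowest each time without replica 3.

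With replica numbers as pairing, the replicate block called 0 beta satellite regions in the drug comparisons, as did the fit without it, and no replicate block called 0 in the untreated ones. At an unadjusted p under 0.05 the block gave 1 of 50 regions with etoposide and 3 of 68 with mitoxantrone in TOP2A, and voom gave 6 and 1, DESeq2 0 and 0. The shares of all regions under that threshold are not given here for these settings. These counts therefore cannot be read as a result about the beta satellites. Over all regions, counts of calls for untreated TOP2A against input were 0 in edgeR with its filter, 25 in DESeq2, 39 without a filter and up to 46 when a replica was left out. Over all chromosome sums they were 7 in edgeR, 14 in DESeq2, and 0 without the block or with all reads as library size.

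Depth kept chromosomes 4, 5 and 20, and the acrocentric regions in the etoposide series, out of the test of single regions. The median biological coefficient of variation over all regions tested was 0.527 in the etoposide series, 0.638 in the mitoxantrone series and 0.18 in the untreated fit with the replica block.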
